A study of Mus musculus with 24 samples.

Results

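The Wnt signalling genes examined here are 42 named genes, 19 ligands, 12 receptors and co-receptors, 4 nuclear effectors, 2 feedback genes and 5 secreted modulators, of 20665 protein-coding genes on chromosomes 1 to 19 of mm10. They were taken from a fixed list of names, and each was described by the histone mark peaks that overlap its gene body or the 5000 bp on each side of it. The peaks come from endothelial cells that were sorted by flow cytometry from mouse lung. KO cells came from mice lacking Dnmt3a, which encodes an enzyme that methylates DNA at unmethylated sites, and WT cells came from wild-type mice. A Cre line or promoter behind the deletion, and the age and sex of the mice, were not found in the labels used here. The assay was ACT-seq, in which an antibody guides a transposase to cut and tag DNA beside a histone mark. Yeast nuclei were added to the same reactions as a spike-in. By the labels there were 24 samples, which is 3 per mark and genotype, and the 3 samples of a group are represented by 1 peak list.

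Wnt ligands are secreted lipid-modified proteins that bind Frizzled receptors together with the co-receptors Lrp5 and Lrp6. In the canonical branch this halts the destruction of beta-catenin, which then enters the nucleus and binds the transcription factors Lef1, Tcf7, Tcf7l1 and Tcf7l2. Axin2 and Nkd1 are induced by the pathway and restrain it, and secreted proteins such as Dkk1 and Rspo3 set how much ligand signal reaches the cell. In blood vessels the pathway is known for its part in vessel growth and in the blood-brain and blood-retina barriers, where Fzd4 acts with Lrp5 and Tspan12.

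H3K27me3 is laid down by the Polycomb system at silent genes. H3K4me3 marks promoters, H3K27ac marks active promoters and enhancers, and H3K4me1 marks enhancers and the flanks of promoters. A list gives the position and width of each peak and no height, score or depth, so a difference below is one between a single WT list and a single KO list, and no test between genotypes could be made. The lists differ in size as a whole, with a KO over WT ratio of covered length of 1.90 for H3K27me3, 1.46 for H3K4me3, 1.19 for H3K4me1 and 0.733 for H3K27ac, and each value of the Wnt genes is therefore read beside that of all genes. The sorted cells are a mixture, and a mark in fewer cells cannot be told apart from less of it in each cell. All 10 endothelial markers (such as Pecam1, Cdh5 and Kdr) carried H3K4me3 and H3K27ac at the start in both genotypes. H3K4me3 at the start was listed at 1 of 8 epithelial markers in WT and 3 in KO, at 0 of 8 leukocyte markers in either, and at 0 of 8 mesenchymal and mural markers in WT and 1 in KO. H3K27ac was listed in both genotypes at 2 epithelial markers (Sftpc and Sftpb), at 1 leukocyte marker (Spi1) and at no mesenchymal or mural marker. In KO only it was also listed at the epithelial marker Foxj1. H3K27me3 was at the start of 3 of the 10 endothelial markers in WT and 5 in KO, and its KO over WT ratio of covered length over them was 2.03. That ratio was 1.74 over the epithelial markers, 0.469 over the leukocyte markers and 2.36 over the mesenchymal and mural markers. The part of these cells in the Wnt gene values was not tested.

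The gene start below is the transcription start of the RefSeq promoter table (GRCm38.p6, the build of mm10), which held 30 of the 42 genes, and a mark is called at the start if a peak lies within 1000 bp of it. For the other 12 genes, Wnt5a, Wnt7b, Wnt8a, Wnt10a, Fzd2, Fzd3, Fzd6, Fzd8, Lrp5, Lrp6, Sfrp1 and Rspo3, either annotated gene end was used. The promoters that carry the differences described below are given from RefSeq, each 300 bases long from 250 before to 50 after the start, read 5′ to 3′ on the gene's strand with CpG dinucleotides in capitals. The first pair, Wnt7a (chr6:91411304-91411603, minus strand) and Wnt9b (chr11:103749772-103750071, minus strand), lay wholly inside H3K27me3 peaks that were listed in KO only.

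Wnt7a: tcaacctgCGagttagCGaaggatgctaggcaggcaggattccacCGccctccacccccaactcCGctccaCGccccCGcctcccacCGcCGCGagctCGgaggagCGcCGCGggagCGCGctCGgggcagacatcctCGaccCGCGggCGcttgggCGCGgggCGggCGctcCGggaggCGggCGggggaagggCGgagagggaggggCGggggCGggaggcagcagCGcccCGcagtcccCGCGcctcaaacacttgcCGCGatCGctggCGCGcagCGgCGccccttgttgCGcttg

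Wnt9b: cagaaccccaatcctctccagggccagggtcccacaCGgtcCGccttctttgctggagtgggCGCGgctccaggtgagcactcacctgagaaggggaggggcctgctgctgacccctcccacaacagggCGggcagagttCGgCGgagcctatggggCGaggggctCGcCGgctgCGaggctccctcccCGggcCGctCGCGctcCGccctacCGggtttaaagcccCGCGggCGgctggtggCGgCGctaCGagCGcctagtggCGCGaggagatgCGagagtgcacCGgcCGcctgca

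Wnt1 (chr15:98789607-98789906, plus strand) is shown as a ligand promoter under H3K27me3 in both genotypes, and Wnt8b (chr19:44493222-44493521, plus strand) as the ligand promoter with the fewest CpGs, which had an H3K27me3 peak in KO only, upstream of the printed window.

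Wnt1: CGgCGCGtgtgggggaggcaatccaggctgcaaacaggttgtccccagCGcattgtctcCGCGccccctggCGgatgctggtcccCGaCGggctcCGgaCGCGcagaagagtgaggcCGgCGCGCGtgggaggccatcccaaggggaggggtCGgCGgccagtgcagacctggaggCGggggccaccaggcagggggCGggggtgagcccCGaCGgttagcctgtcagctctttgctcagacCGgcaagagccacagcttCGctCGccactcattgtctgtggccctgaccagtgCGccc

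Wnt8b: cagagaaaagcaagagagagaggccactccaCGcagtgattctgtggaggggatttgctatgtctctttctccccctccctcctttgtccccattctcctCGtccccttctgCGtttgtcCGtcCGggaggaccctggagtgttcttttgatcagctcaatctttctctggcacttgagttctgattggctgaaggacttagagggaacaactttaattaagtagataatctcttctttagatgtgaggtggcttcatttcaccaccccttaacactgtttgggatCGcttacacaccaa

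Fzd7 (chr1:59481897-59482196, plus strand) lay inside an H3K27ac peak that was listed in WT only, and Axin2 (chr11:108920099-108920398, plus strand) had the widest H3K4me3 peak of the 42 genes in both genotypes.

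Fzd7: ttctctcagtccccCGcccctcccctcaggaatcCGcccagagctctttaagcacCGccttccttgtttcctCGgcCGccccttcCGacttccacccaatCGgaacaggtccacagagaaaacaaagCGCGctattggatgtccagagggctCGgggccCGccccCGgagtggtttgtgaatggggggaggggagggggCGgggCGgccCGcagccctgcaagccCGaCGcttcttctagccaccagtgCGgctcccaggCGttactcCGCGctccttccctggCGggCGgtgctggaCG

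Axin2: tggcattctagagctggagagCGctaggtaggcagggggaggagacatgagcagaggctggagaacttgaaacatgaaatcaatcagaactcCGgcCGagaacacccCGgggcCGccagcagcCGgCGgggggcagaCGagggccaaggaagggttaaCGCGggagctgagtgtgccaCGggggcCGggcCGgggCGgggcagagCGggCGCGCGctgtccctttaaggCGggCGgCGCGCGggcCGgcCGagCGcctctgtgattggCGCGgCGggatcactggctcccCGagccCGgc

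Every one of the 19 Wnt ligand genes carried H3K27me3 in both genotypes, and every one had more sequence under it in KO. Of all genes, 45.8% had the mark in their window in both genotypes. Peaks covered 33140 bp of the ligand windows in WT and 69425 bp in KO, a ratio of 2.09, and the median of the ligands' own ratios was 1.93. Over all genes the covered lengths gave a ratio of 1.78 and the median gene with the mark in both had 1.40. The covered length was at least 1.5 times higher in KO at 15 of the 19 ligands, where 44.8% of all genes with the mark in both genotypes passed that mark, and the covered length was higher in KO at 75.9% of genes with it in either genotype.

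Wnt3a, which acts through beta-catenin and is best known from early embryonic patterning, held the most H3K27me3 of the 42 genes in KO, while Wnt3 and Dkk2 held more in WT. Its 9 WT peaks covered 4045 bp and its 7 KO peaks 8974 bp, the largest difference among the 42 genes. The 4 WT peaks from 23577 bp into the gene onward, the widest of them 496 bp, lay under a single KO peak of 3711 bp at chr11:59263612-59267322, the widest H3K27me3 peak of any of the 42 genes. No other mark was listed over Wnt3a in either genotype.

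Wnt8b, a ligand of the developing forebrain, had the next largest difference, with 722 bp in 2 WT peaks and 4900 bp in 7 KO peaks. The KO peaks included 1 of 2014 bp past the end of the gene and 1 of 523 bp whose nearer edge lay 908 bp from the start. Wnt5b, Wnt1 and Wnt7a also differed by more than 3-fold. Wnt5b covered 687 bp in WT and 3880 bp in KO, a ratio of 5.65. Wnt1 covered 562 bp in WT and 2869 bp in KO, a ratio of 5.10. At the Wnt1 promoter printed above, the single WT peak of 562 bp (chr15:98789629-98790190) lay within a KO peak of 1190 bp (chr15:98789120-98790309). Wnt7a, which acts on blood vessels of the brain, covered 743 bp in WT and 2547 bp in KO. The smallest ratios among the ligands were at Wnt2, with 2213 bp in WT and 2498 bp in KO, at Wnt16, with 2124 and 2559 bp, and at Wnt3, with 5503 and 7330 bp. All 3 lay above the median ligand of WT, 1697 bp.

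At the gene start itself, H3K27me3 was listed at 14 of the 19 ligands in WT and 18 in KO. The 4 ligands with it in KO only were Wnt7a, Wnt8a, Wnt8b and Wnt9b, and no other member of the 42 genes had it in KO only. They are 21.1% of the 19 ligands and 9.52% of the 42 genes, and 8.07% of all genes had the mark at the start in KO only. The share of the 42 genes is close to the background. That of the ligands is higher, on 4 genes and with no test made. With the limit at 500 bp the KO-only count was 7. All 4 already carried H3K27me3 elsewhere in the window in WT. At Wnt7a the WT peak lay 3193 bp from the start, and KO added a peak of 1440 bp over the start (chr6:91410695-91412134). At Wnt9b the nearest WT peak was 14061 bp from the start, and KO had a peak of 1505 bp over it (chr11:103749116-103750620). The upstream end of the Wnt9b gene overlaps Wnt3, so the peaks there count for both genes. Wnt8a, where either gene end counts as the start, had 1 peak in each genotype, of 843 bp in WT and 1417 bp in KO. Those peaks did not overlap each other. Wnt6 had H3K27me3 in its window, 2675 bp in WT and 4645 bp in KO, but no peak at its RefSeq start in either genotype.

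**Figure D1:**
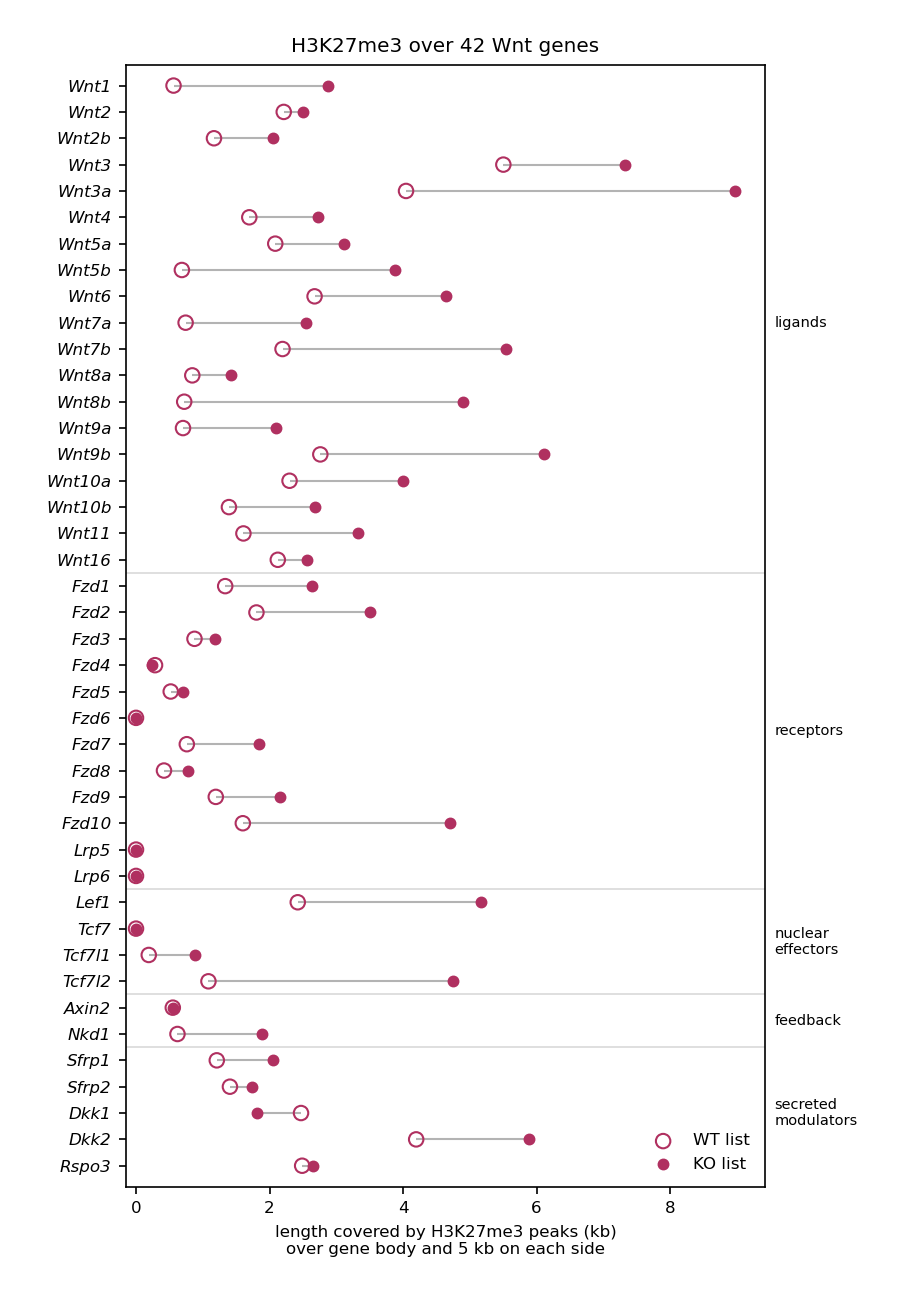
Length in kb covered by H3K27me3 peaks over the gene body and 5 kb on each side for the 42 genes, grouped by role, with an open circle for the WT list and a filled circle for the KO list; one value stands for each list, so there is no error bar. The KO circle lies to the right at all 19 ligands and to the left at Fzd4 and Dkk1, and Fzd6, Lrp5, Lrp6 and Tcf7 have both circles at 0.

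Active marks were sparse at the ligands. H3K27ac was listed at the start of 2 ligands in WT (10.5%), Wnt2 and Wnt5b, and of none in KO, against 52.1% and 48.7% of all genes. H3K4me3 at the start was listed at 3 ligands in WT (Wnt2b, Wnt5b and Wnt11) and 6 in KO. These are 15.8% and 31.6% of the ligands, against 47.9% and 54.0% of all genes. Each of the 6 also had H3K27me3 there. Ligands with H3K27me3 and no H3K4me3 at the start numbered 11 in WT and 12 in KO, those with both marks 3 and 6, and those with neither 5 and 1. Of all 20665 genes, 2436 in WT and 2264 in KO had H3K27me3 without H3K4me3, 26.7% and 32.0% had both, and 40.3% and 35.0% had neither.

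Wnt2, a ligand known from lung development, was the ligand with the widest H3K4me1 peak, 830 bp in WT and 1190 bp in KO. Its H3K27ac was 2 peaks of 675 and 198 bp in WT and 1 of 128 bp in KO, and the 198 bp peak, 253 bp upstream of the start, was the nearest to the start. Its H3K4me3 covered 312 bp in WT and 1333 bp in KO, the latter with 2 narrow peaks of 141 and 198 bp far inside the gene. The WT H3K4me3 peak of Wnt2 (chr6:18031681-18031992) lay 1236 bp from the start and the KO peak that overlaps it (chr6:18031366-18032359, 994 bp) lay 921 bp from it, so the call of H3K4me3 at the start in KO only rests on the edge of a peak present in both. The peaks of the other 3 marks just upstream of the Wnt2 start all lay inside an H3K27me3 peak of 2100 bp in WT and 2498 bp in KO.

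Wnt5a, a ligand mostly of the branches without beta-catenin, had the same kind of edge: an H3K4me3 peak of 340 bp in WT, 1062 bp from the gene end, and of 619 bp in KO, 920 bp from it. Its H3K4me3 covered 340 bp in WT and 1348 bp in KO. Wnt1 had no H3K4me3 in WT and a peak of 115 bp in KO, 869 bp from the start. Wnt10a had none in WT and 2 peaks of 185 and 266 bp in KO, of which the second was near a gene end. Wnt11, a ligand of planar polarity, went the other way, with a 237 bp H3K4me3 peak in WT at the second of its RefSeq starts and none in KO. Wnt10b had 250 bp of H3K4me3 in WT, away from the start, and none in KO. Together with Fzd2 and Sfrp1 below, 6 of the 42 genes (14.3%) had H3K4me3 at the start in KO only, against 6.75% of all genes. The WT-only count was 1 of 42 (2.38%), against 0.615%. With the limit at 500 bp from the start, 2 genes had H3K4me3 there in KO only, and with either gene end used for all genes 5 did. At Wnt5a, Wnt10a, Fzd2 and Sfrp1 a peak near either gene end counted. That rule served 12 of the 42 genes, while 16457 of all 20665 genes had a start in the promoter table.

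Wnt5b had the most H3K4me3 of the ligands, 1756 bp in WT and 3443 bp in KO, but its widest peak, 1457 bp in WT and 1642 bp in KO, lies at the start of Fbxl14, which sits inside the long annotated Wnt5b gene. Nearer its own first start, H3K4me3 was 299 bp in WT and 2 peaks of 538 and 183 bp in KO. Its WT-only H3K27ac peak of 673 bp (chr6:119449185-119449857) covered a downstream start, where KO listed a 123 bp H3K27me3 peak. Wnt2b was the ligand with the widest H3K27ac peak, 738 bp in WT and 750 bp in KO, away from its start.

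**Figure D2:**
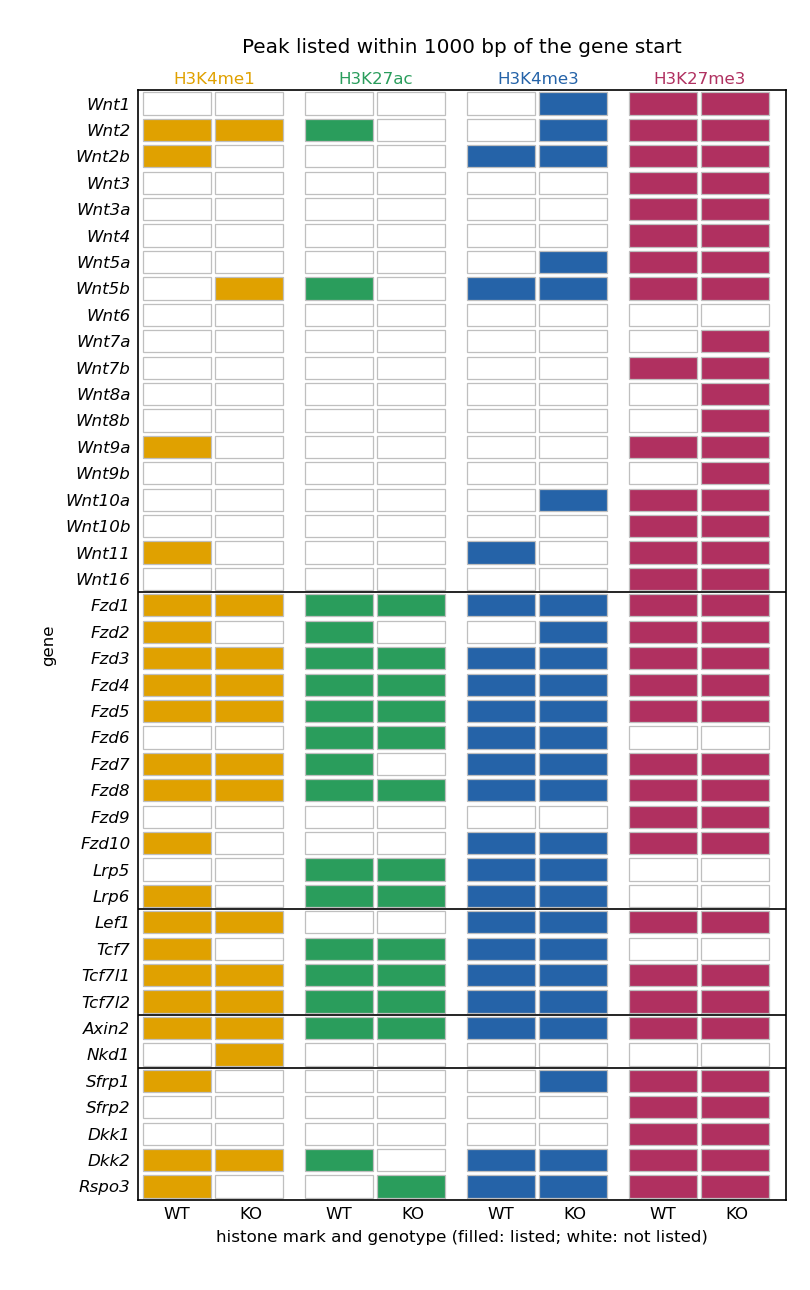
Presence of a peak within 1000 bp of the gene start for each of the 42 genes and 4 marks, with the WT list in the left and the KO list in the right column of each pair and a filled tile where a peak is listed. The ligands in the top block are nearly empty for H3K27ac and filled for H3K27me3, while 8 of the 12 receptors hold H3K27ac in both lists.

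Most receptors had H3K4me3 and H3K27me3 both called at the start, 7 of 12 in WT and 8 in KO (58.3% and 66.7%). Of all genes, 26.7% and 32.0% did. H3K27ac was called there as well at 6 receptors in WT and 5 in KO (50.0% and 41.7%), against 25.4% and 27.7% of all genes. At Fzd3 and Fzd8, where either gene end counts, the marks may lie at different ends. H3K4me3 was at the start of 10 of 12 receptors in both genotypes (83.3%, against 47.3% of all genes), with Fzd2 added in KO and Fzd9 in neither. H3K27ac was at the start of 10 receptors in WT and 8 in KO (83.3% and 66.7%, against 52.1% and 48.7% of all genes). H3K27me3 was at the start of the same 9 receptors in both genotypes (75.0%, against 34.9% of all genes), all but Fzd6, Lrp5 and Lrp6. Covered length over the receptors gave KO over WT ratios of 2.02 for H3K27me3, 1.40 for H3K4me3, 1.16 for H3K4me1 and 0.942 for H3K27ac, and 1.78, 1.41, 1.19 and 0.775 over all genes. The receptors' H3K27ac sum is carried by Lrp5: 9 receptors covered less in KO and 2 covered more. The 9 are 81.8% of the receptors with the mark in either genotype, near the 74.8% of all such genes.

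Fzd4, the receptor of retinal and brain vessels, had all 4 marks at its start in both lists. The start carried an H3K4me3 peak of 1610 bp in WT and 1854 bp in KO and an H3K27ac peak of 1517 bp in WT and 1594 bp in KO, the widest of either mark among the receptors. In all, Fzd4 had 2665 bp of H3K27ac in WT and 2867 bp in KO, and only Lrp5 and Wnt2b also had more in KO. H3K4me3 covered 1610 bp of the Fzd4 window in WT and 2356 bp in KO, where 2 narrow peaks of 281 and 221 bp were added, and H3K4me1 covered 2485 bp in WT and 3029 bp in KO. Its H3K27me3 peak was narrow, 285 bp in WT and 238 bp in KO, and Fzd4 was 1 of 2 genes, with Dkk1, where the mark covered less in KO. The start of Tmem135 lies within 1000 bp of the Fzd4 start, so these peaks may belong to either gene.

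Lrp5 and Lrp6, the co-receptors, carried no H3K27me3 in either genotype and differed in opposite directions for H3K27ac. Lrp5 had 10 H3K27ac peaks in each genotype, covering 3852 bp in WT and 6356 bp in KO, the largest difference in that direction among the 42 genes. Its H3K4me1 was also wider in KO, 5246 bp in WT and 7086 bp in KO, with a widest peak of 1559 bp that was the widest among the receptors. Lrp6 had 11 H3K27ac peaks over 3697 bp in WT and 4 over 2143 bp in KO, while its H3K4me3 covered 1072 bp in WT and 1931 bp in KO. Fzd6, which acts in planar polarity, was the third receptor without H3K27me3, with 3766 bp of H3K27ac in WT and 3373 bp in KO and an H3K4me3 peak of 1241 bp in WT and 1259 bp in KO.

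Fzd7 and Fzd2 were the receptors with H3K27ac at the start in WT only. At Fzd7 the promoter printed above lay inside an H3K27ac peak of 725 bp in WT (chr1:59481718-59482442) and no H3K27ac peak was listed over the gene in KO. H3K4me3 over the same start was alike, 906 bp in WT and 913 bp in KO, and H3K27me3 there was 419 bp in WT and 849 bp in KO. At Fzd2 a 108 bp H3K27ac peak of WT and a 204 bp H3K4me3 peak of KO lay on the same spot, inside an H3K27me3 peak of 1804 bp in WT and 2010 bp in KO. Among the 42 genes, 5 (11.9%) had H3K27ac at the start in WT only (Wnt2, Wnt5b, Fzd2, Fzd7 and Dkk2), against 5.09% of all genes.

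Fzd1 had the widest H3K27me3 peak of the receptors in KO. Its 3 WT peaks, covering 1336 bp, lay under 1 KO peak of 2638 bp (chr5:4755785-4758422), and its 2 H3K4me3 peaks, 956 bp in WT, under 1 of 1717 bp in KO. Fzd10 had 108 bp of H3K27ac in WT and none in KO, and Fzd9 had none in either. Fzd10 had 1600 bp of H3K27me3 in WT and 4699 bp in KO, and was the receptor with less H3K4me3 in KO, 604 bp in WT and 439 bp in KO. Fzd9 had H3K27me3 alone, 1195 bp in WT and 2164 bp in KO. Fzd3, Fzd5 and Fzd8 held all 4 marks at the start in both genotypes, with H3K27me3 from 419 to 876 bp in WT and from 703 to 1180 bp in KO.

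The 4 nuclear effectors all had less H3K27ac in KO, and each by at least 1.5 times. The mark covered 14878 bp over them in WT and 6843 bp in KO, a ratio of 0.46 beside 0.775 over all genes. Over all genes with the mark in both genotypes, 26.8% had at least 1.5 times more in WT, and H3K27ac covered less in KO at 74.8% of genes with it in either genotype. Over the 42 genes the count was 10 of 19 (52.6%). H3K4me3 was at the start of all 4 in both genotypes and covered more in KO at each, with a ratio of 1.62. Of all genes, 47.3% had H3K4me3 at the start in both genotypes. It covered more in KO at 80.0% of genes with it in either genotype, and the ratio over all genes was 1.41.

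Tcf7l1, a factor that mostly represses Wnt targets in the absence of beta-catenin, had the largest difference in H3K27ac, with 20 peaks over 7188 bp in WT and 6 over 2684 bp in KO. Its H3K4me1 did not share that pattern: 19 peaks covered 10018 bp in WT and 20 covered 11966 bp in KO, the most of any of the 42 genes. The H3K4me3 peak at its start was the widest among the effectors, 1012 bp in WT and 1527 bp in KO. Tcf7l2, which with beta-catenin activates targets in many tissues, had 8 H3K27ac peaks over 2751 bp in WT and 2 over 1742 bp in KO, but the peak over its start was wider in KO, 706 bp in WT and 1023 bp in KO. The Tcf7l2 H3K27ac peaks listed in WT only, each from 190 to 483 bp wide, all lay away from the start.

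Lef1, which activates Wnt target genes together with beta-catenin, had H3K27ac at 5 peaks over 1610 bp in WT and 2 over 296 bp in KO, none of them at a start. Its widest H3K27ac peak, with its centre 29437 bp into the gene in WT, was 889 bp in WT (chr3:131139290-131140178) and 125 bp in KO (chr3:131139363-131139487). Near the start Lef1 carried H3K4me3 and H3K27me3 together, with H3K27me3 of 1376 bp in WT (chr3:131111167-131112542) and 2347 bp in KO (chr3:131111088-131113434), the widest among the effectors. Tcf7, a factor best known from T cells, had no H3K27me3 in either genotype, with 3329 bp of H3K27ac in WT and 2121 bp in KO.

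H3K27me3 covered 3699 bp of the effectors in WT and 10803 bp in KO, a ratio of 2.92, the largest among the 5 roles. Tcf7l2 accounts for much of the sum, with 3 peaks over 1085 bp in WT and 10 over 4749 bp in KO, most of the added peaks inside the gene. Lef1 had 2423 bp in WT and 5175 bp in KO, and Tcf7l1 had 191 bp in WT and 879 bp in KO. Effector genes are long, and the median length of the 42 genes, 28842.5 bp, is above that of all genes, 17491 bp.

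Axin2, the most used readout gene of canonical Wnt signalling, had H3K4me3 and H3K27me3 peaks of nearly the same width in both lists at its start. The H3K4me3 peak was 2227 bp in WT (chr11:108920243-108922469) and 2272 bp in KO (chr11:108920234-108922505). Its H3K27me3 peak was 551 bp in WT and 561 bp in KO. H3K27ac at the Axin2 start was narrower in KO, 1269 bp in WT and 607 bp in KO, and the whole gene had 1894 bp in WT and 1072 bp in KO. Nkd1, which binds Dishevelled and restrains the pathway, had an H3K27ac peak of 1512 bp in WT, where the widest of the 42 genes was that of Fzd4, and of 1712 bp in KO, the widest there, beside many narrower peaks: 13 covered 3816 bp in WT and 5 covered 3295 bp in KO. Nkd1 also had more H3K4me1 in KO, 3225 bp in WT and 5047 bp in KO, with a peak of 1506 bp in WT and 1678 bp in KO that was the widest H3K4me1 peak of the 42 genes. Its widest H3K4me3 peak, 1018 bp in WT and 1718 bp in KO, lay at the outer end of the annotated gene, 4928 bp or more from the RefSeq start. In KO, 2 further H3K4me3 peaks of 239 and 846 bp lay inside the wide H3K27ac peak of Nkd1, where WT listed none.

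The 5 secreted modulators all had H3K27me3 at the start in both genotypes, against 34.9% of all genes. The mark covered 11775 bp over them in WT and 14126 bp in KO. That ratio of 1.20 was the lowest of the 5 roles and lay below the 1.78 over all genes. Dkk1, an inhibitor that binds Lrp5 and Lrp6, had less in KO, 2472 bp in WT and 1806 bp in KO, and carried none of the other 3 marks. Dkk2, a related protein, had 4197 bp in WT and 5894 bp in KO. Sfrp2, which binds Wnt ligands, had 1407 bp in WT and 1731 bp in KO, and its relative Sfrp1 had 1210 bp in WT and 2047 bp in KO. Rspo3, a ligand that raises Wnt signalling and is known from endothelium, had the widest peak of the group, 2122 bp in WT and 2150 bp in KO.

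H3K27ac and H3K4me3 at Dkk2 and Rspo3 differed in opposite directions. Dkk2 had 11 H3K27ac peaks over 2673 bp in WT and 2 over 855 bp in KO, with none at the start in KO, while its H3K4me3 was 1 peak of 356 bp in WT and 5 over 1553 bp in KO, with no overlap between the 2 lists. Rspo3 had 12 H3K27ac peaks over 2816 bp in WT and 4 over 1484 bp in KO. Its H3K4me3 was 726 bp in WT and 2320 bp in KO, the latter with a KO-only peak of 952 bp. Rspo3 was the only 1 of the 42 genes (2.38%) with H3K27ac at a gene end in KO only, a 288 bp peak, against 1.76% of all genes. Sfrp1 had H3K4me3 at a gene end in KO only, a peak of 449 bp, while its 343 bp peak of WT lay 2179 bp away. Dkk2 also had less H3K4me1 in KO, 2478 bp in WT and 1511 bp in KO, the largest difference in that direction, followed by Wnt9a, whose only H3K4me1 peak, 638 bp at the start, was in WT.

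**Figure D3:**
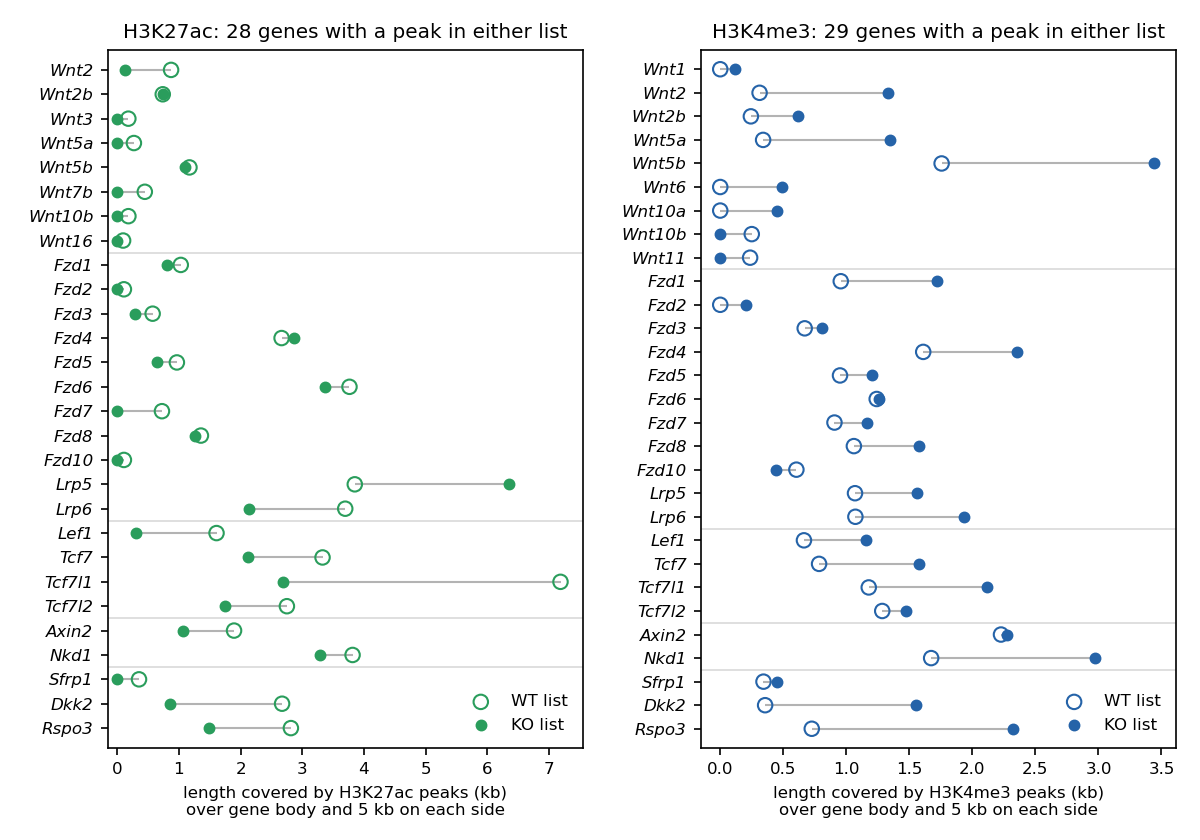
Length in kb covered by H3K27ac (left, 28 genes) and H3K4me3 (right, 29 genes) peaks over the gene body and 5 kb on each side, for the Wnt genes with the mark in either list, ordered by role from ligands at the top to secreted modulators at the bottom; open circles are WT, filled circles KO. H3K27ac lies lower in KO at 25 of 28 genes and H3K4me3 higher in KO at 26 of 29.

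Over the 42 genes together, H3K27me3 was listed at a larger share of genes than over all genes. It was in the window of 38 genes (90.5%) in both genotypes, against 45.8% of all genes, and at the start of 32 genes (76.2%) in both, against 34.9%. It was at the start in WT only at 0 of the 42, against 3.55% of all genes. No test of that difference was made, since the list was chosen with earlier results of these data known. H3K27me3 covered more in KO at 36 of the 38 genes (94.7%, against 75.9%), and at least 1.5 times more at 26 of 38 (68.4%, against 44.8%). The sums were 58582 bp in WT and 114541 bp in KO, a ratio of 1.96 beside 1.78 over all genes.

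H3K27ac gave 139 peaks in WT and 62 in KO, a ratio of 0.446 (interval 0.325 to 0.606) beside 0.606 over all genes, and covered 49234 bp in WT and 33290 bp in KO, a ratio of 0.676 beside 0.775 over all genes. The number depends on narrow peaks, since among peaks of at least 200 bp the ratio was 0.718. H3K27ac covered less in KO at 25 of 28 genes (89.3%, against 74.8%), and was in the window in WT only at 9 of 42 (21.4%, against 9.05%). H3K4me3 was listed at 44 peaks over them in WT and at 69 in KO, a ratio of 1.57 (interval 1.06 to 2.34) beside 1.40, and covered 22512 bp in WT and 37722 bp in KO, a ratio of 1.68 beside 1.41. With equal numbers of the widest peaks taken from both H3K4me3 lists the ratio of numbers was 0.955. The other marks were at the start in both genotypes about as often as elsewhere or less, H3K4me3 at 19 of the 42 (45.2%, against 47.3%), H3K27ac at 12 (28.6%, against 47.0%) and H3K4me1 at 12 (28.6%, against 37.4%). H3K4me3 covered more in KO at 26 of 29 genes (89.7%, against 80.0%) and at least 1.5 times more at 12 of 23 (52.2%, against 32.6%). The intervals, exact at 95%, reflect counting error alone and take each peak as an independent count.

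H3K4me1 had the ratios nearest to 1, with 114 peaks in WT and 112 in KO and 51871 bp in WT against 57363 bp in KO, a ratio of 1.11 beside 1.19. It differed more at gene starts, where 9 of the 42 genes (21.4%, against 10.1%) had H3K4me1 in WT only, Wnt2b, Wnt9a, Wnt11, Fzd2, Fzd10, Lrp6, Tcf7, Sfrp1 and Rspo3, and 2 (4.76%, against 2.23%) in KO only, Wnt5b and Nkd1, or 0 where either gene end was used for all genes. Of the WT peaks over the 42 genes, the shares that overlapped a KO peak of the same mark were 89.3% for H3K27me3, 79.5% for H3K4me3, 70.2% for H3K4me1 and 37.4% for H3K27ac. Over all genes these shares were 80.8%, 86.4%, 76.3% and 43.6%, in the same order. Of the KO peaks, 56.4%, 43.5%, 68.8% and 77.4% overlapped a WT peak, and over all genes 56.2%, 59.0%, 75.2% and 72.1%.

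**Figure D4:**
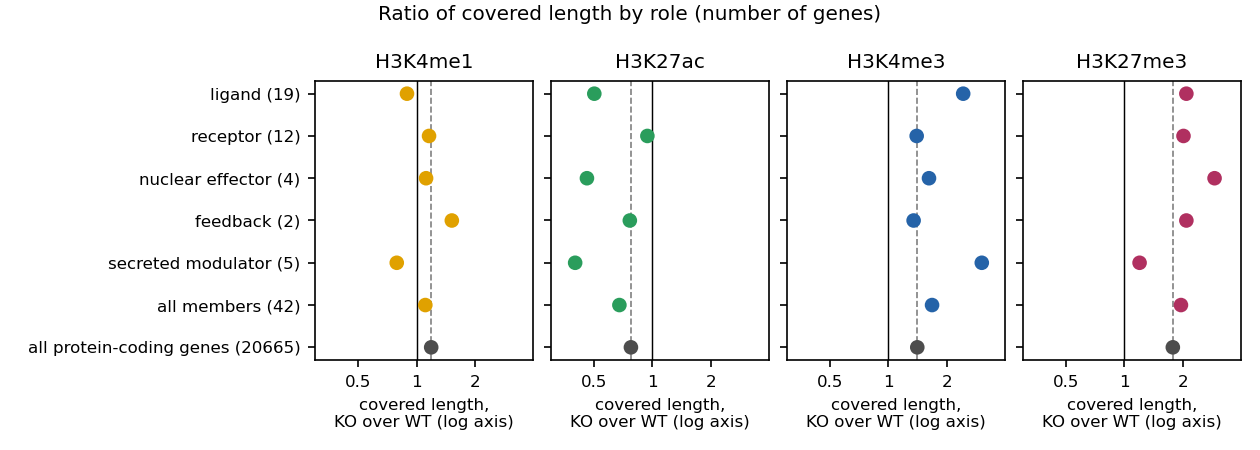
Ratio of covered length, KO over WT on a log axis, for each mark and role, with the number of genes in brackets; the solid line marks a ratio of 1 and the dashed line the value over all protein-coding genes. Each point is 1 ratio of sums from a single pair of lists and has no error bar. For H3K27me3 the nuclear effectors lie highest at 2.92 and the secreted modulators lowest at 1.20, and for H3K27ac the receptors lie nearest to 1 at 0.942.

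Since most of the Wnt genes carried H3K27me3, they were also set beside genes of that kind, those with H3K27me3 at the start in both genotypes and H3K27ac there in neither. Of 2046 such genes, 18 are Wnt genes and 12 of these are ligands. The median ratio of H3K27me3 covered length was 1.84 over the 12 ligands, 1.79 over the 18 Wnt genes and 1.72 over the 2046 genes. H3K27me3 covered at least 1.5 times more in KO at 13 of the 18 (72.2%), against 62.3% of the 2046. H3K4me3 at the start in KO only was found at 4 of the 18 (22.2%), against 15.8%. The medians of the Wnt genes lay near that of this class, and no test of the difference was made.

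Away from gene starts the WT list had 88 H3K4me1 peaks over the 42 genes and the KO list 94. H3K27ac of the same genotype overlapped 46.6% of them in WT (interval 35.9 to 57.5) and 40.4% in KO (30.4 to 51.0), intervals that overlap. H3K4me3 overlapped 9.09% in WT (4.01 to 17.1) and 22.3% in KO (14.4 to 32.1), where the intervals overlap as well. Over the windows of all genes the share under H3K27ac was 54.8% in WT and 49.7% in KO, and that under H3K4me3 was 6.59% in WT and 15.5% in KO, so both marks differed in the same direction there. Of the 39 H3K4me3 peaks of KO that overlapped no WT peak of that mark, 20 (51.3%) lay on WT H3K4me1 peaks, where 50.6% of such peaks over all genes did. On WT H3K27ac peaks lay 16 of the 39 (41.0%, against 49.1%), and within 1000 bp of the start of any gene 11 (28.2%, against 28.9%), 10 of them at the member's own start. These shares are near the background. The median width of the 39 was 230 bp. The nuclear effectors held 30 of the WT H3K4me1 peaks away from starts, of which 15 overlapped H3K27ac, and 35 of the KO peaks, of which 11 did.

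The other genes of the pathway, 53 of 54 listed genes with Porcn not analysed here, stood closer to the average gene in ratios of covered length. These KO over WT ratios were 1.65 for H3K27me3, 1.44 for H3K4me3, 1.24 for H3K4me1 and 0.773 for H3K27ac. H3K4me3 was at the start of 36 of the 53 in both genotypes, a larger share than the 47.3% of all genes and the 45.2% of the 42 genes. In KO only it was at the start of Dvl2 and Rspo2, against 6.75% of all genes. H3K27me3 was at the start of 31 of the 53 in both, of 5 in WT only (Csnk1a1, Dvl1, Dvl3, Wls and Prickle2) and of 3 in KO only (Pygo2, Ctnnbip1 and Tspan12). The shares of all genes were 34.9%, 3.55% and 8.07%, in the same order. Among the 53 the shares in both and in WT only were higher than these, and that in KO only was lower. The 10 genes of the destruction complex and beta-catenin had H3K27me3 over 4556 bp in WT and 4394 bp in KO, a ratio of 0.964. They had H3K27ac at the start of 9 in both, against 47.0% of all genes. The 12 other secreted agonists and antagonists had H3K27me3 at the start of 10 in both genotypes, as did all 5 secreted modulators among the 42 genes.

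The promoters of the Wnt genes were rich in CpG, the dinucleotide that Dnmt3a methylates. The 30 promoters in the table had a median of 31 CpGs in 300 bases (range 6 to 58), against 14 over 16457 genes (range 0 to 65). The median was 16 over all genes with H3K27me3 and no H3K4me3 at the start, 21 over those with H3K4me3 and no H3K27me3, and 2 over those with neither. Among the printed promoters Wnt7a had 42, Axin2 31, Wnt9b 29, Wnt1 26, Fzd7 24 and Wnt8b 6. The secreted modulators had the lowest median, 11 over 3 promoters, and the receptors 35 over 6.

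The core motif of the Tcf and Lef factors, CTTTGAA or CTTTGAT on either strand, was found in 2 of the 30 promoters (6.67%), Wnt11 and Dkk1, against 7.80% of the 16457. They are shown with the motif in capitals, Wnt11 (chr7:98834862-98835161, plus strand) with it on the reverse strand from base 200 and Dkk1 (chr19:30549447-30549746, minus strand) from base 134. Both promoters overlapped H3K27me3 peaks in each genotype.

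Wnt11: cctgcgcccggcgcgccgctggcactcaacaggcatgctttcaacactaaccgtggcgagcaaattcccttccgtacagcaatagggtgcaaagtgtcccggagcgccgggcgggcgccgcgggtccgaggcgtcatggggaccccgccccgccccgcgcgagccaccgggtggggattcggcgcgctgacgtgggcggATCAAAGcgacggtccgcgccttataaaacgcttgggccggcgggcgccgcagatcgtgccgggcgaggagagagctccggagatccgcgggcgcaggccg

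Dkk1: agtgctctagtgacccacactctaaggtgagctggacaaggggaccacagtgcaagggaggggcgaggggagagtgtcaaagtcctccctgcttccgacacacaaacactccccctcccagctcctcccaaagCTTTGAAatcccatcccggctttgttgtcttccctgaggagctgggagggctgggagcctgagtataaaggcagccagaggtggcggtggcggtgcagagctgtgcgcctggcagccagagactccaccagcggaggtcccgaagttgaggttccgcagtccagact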

How the data were processed

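The authors deposited 1 peak list for each of 4 marks in WT and KO, 8 in all, giving where each peak begins and ends on chromosomes 1 to 19 and how many bp wide it is. These deposited positions and widths carry no score, height or p, and were used without rescaling. Per the submitters' processing notes, MACS2 2.1.2.1, deepTools 3.1.1, SAMtools, Bowtie2 2.2.6, cutadapt 1.14 and Trim Galore 0.4.4 took part, on the builds mm10 (mouse) and R64 (yeast). Each tool's role, the peak threshold, the peak mode, any pooling of samples and how the yeast spike-in entered were not given in the sources used here, and the depth per sample is unknown. H3K9me3 is not analysed here.

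The gene set was the protein-coding annotation of GRCm38.p6, whose coordinates are those of mm10. Peaks of 1 mark that had at least 1 bp in common between WT and KO were called shared. Covered length is the number of bp under peaks inside the gene body and 5000 bp on each side. A peak in 2 windows counts in both genes and once in a sum. A peak near the starts of 2 genes cannot be given to either, and 22 of 792 peaks of the 42 genes (2.78%) lay within 1000 bp of the start of another gene. Shares carry exact Clopper-Pearson intervals and ratios of peak numbers exact binomial ones, at 95%. The overlap steps were tested on simulated lists and recovered the 60% of 5000 peaks per mark made to overlap, and for 300 genes per mark 0 differed from an exhaustive search. Analysis used Python 3.11.15, numpy 2.4.6, pandas 2.3.3, scipy 1.17.1 and matplotlib 3.10.9.

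The members, the other lists and the rules were chosen with earlier results of these data known. All 42 genes were accounted for. Those named singly have a start mark of H3K4me3, H3K27ac or H3K27me3 that differed between genotypes, the widest peak of a mark in their role, or 1 of the 2 largest differences in covered length in each direction. The rest are named for their place in a role.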

Additional observations from a re-analysis of the deposited data

How the results depend on the processing

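No paired analysis was possible because a single list stands for the 3 samples of a group, and for the same reason leaving out a sample was not run. The alternatives were peaks of at least 200 bp, equal numbers of the widest peaks from both lists, an overlap of at least 50%, gene bodies alone or with 10000 bp on each side, starts within 500 or 2000 bp, either gene end for all genes, and, chosen after seeing the data, leaving out peaks near the start of another gene. Of 134 such values for 30 results, 111 stayed close to the reported one, 19 moved and 4 changed direction. The H3K4me1 ratio of peak numbers, 0.982, was 1.04 with peaks of at least 200 bp, 1.02 with equal numbers and 1.01 over gene bodies alone. With equal numbers, the ratio was 0.955 for H3K4me3 (reported 1.57), 0.838 for H3K27ac (0.446) and 1.11 for H3K27me3 (1.45). The shared percentage then was 63.5 for WT H3K27ac (37.4), 66.7 for KO H3K4me3 (43.5), 81.6 for WT H3K27me3 (89.3) and 66.7 for KO H3K27me3 (56.4), H3K27me3 at the start in WT only was found at 1 gene (0), H3K4me3 in WT only at 2 (1), and 1 ligand (0) had less H3K27me3 in KO. With peaks of at least 200 bp, the H3K27ac ratio was 0.718, WT H3K27ac was 57.7% shared, H3K4me3 at the start was in WT only at 2 genes and H3K4me1 in KO only at 1 (2). Within 500 bp, H3K4me3 was at the start in KO only at 2 genes (6), the WT-only count was 2, and H3K27me3 was in KO only at 7 (4) and H3K4me1 in KO only at 1. Within 2000 bp, H3K27ac was in KO only at 0 genes (1). With either gene end, H3K4me1 was in KO only at 0. The equal-number and width settings drop narrow peaks by construction, and the cause of the other shifts was not tested. Ratios of covered length moved less: 1.97 to 2.18 for H3K27me3 over the ligands, 0.395 to 0.529 for H3K27ac over the nuclear effectors, and 1.45 to 1.81 for H3K4me3 over the 42 genes.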
